A study of Bos taurus with 29 samples.

Results

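The genes described here encode cytoplasmic actin and proteins that hold, feed, cut, nucleate or scaffold it. They were taken as a fixed list of 9 genes: the actins ACTB and ACTG1, the monomer-binding proteins TMSB4X, TMSB10 and PFN1, the severing protein CFL1, the scaffold IQGAP1, and the nucleators FMN2 and SPIRE1. Of these, 8 had a row among the 13502 genes of the table, and all 8 passed a filter of at least 1 CPM (reads scaled to a common library total) in at least 6 libraries, which kept 11852 genes. FMN2 was not analysed here. Each library was the messenger RNA of a single wild-type (WT) cattle oocyte from donors given follicle stimulating hormone (FSH). CNP_IVM oocytes spent 6 h inside their cumulus cells with C-type natriuretic peptide (CNP) at 200 nM, which granulosa cells make and which keeps oocytes in meiotic arrest through cyclic GMP, in medium with FSH and without epidermal growth factor (EGF). They were then matured for 22 h in medium with both EGF and FSH. IVM oocytes (conventional in vitro maturation) went straight into those 22 h, and both groups were taken at metaphase II, judged by the polar body. Germinal vesicle (GV) oocytes, arrested before meiosis resumes, were stripped of cumulus cells when collected. Of 29 labelled oocytes, 22 had values: 7 CNP_IVM, 8 IVM and 7 GV.

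Actin moves between a soluble pool of monomers and filaments. Beta-thymosins (TMSB4X, TMSB10) bind monomers and keep them from assembling, profilin (PFN1) carries monomers to growing filament ends, and cofilin (CFL1) severs old filaments and returns monomers to the pool. In mouse oocytes the formin FMN2 and the SPIRE proteins nucleate the cytoplasmic mesh of filaments that moves the meiotic spindle to the cortex before the polar body is cut off. IQGAP1 is a large scaffold that binds filaments, calmodulin and the small GTPases Rac1 and Cdc42 at the cell cortex.

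The labels name no donor animal or culture for any oocyte, so each group counts as 1 sample. No comparison between groups was tested and no p-value is given. Library totals ran from 20159662 to 39340040 reads. Libraries were primed on the poly(A) tail and scaled to their total, so more transcript, a longer tail and less of other transcripts cannot be told apart. CNP and the 6 h of extra culture cannot be told apart either. All 17 oocyte markers examined had a row, each averaging 1 CPM or more in every group, with sums of 40965 to 59522 CPM in CNP_IVM, 28270.2 to 47862 CPM in IVM and 26634 to 31456 CPM in GV oocytes. BTG4 made up much of that sum, averaging 32075, 19952 and 9807 CPM in the same order, and the list did not move one way: against GV, 3 of the 17 were at least 2-fold higher and 9 lower in CNP_IVM (median log2 difference -1.12), and 5 and 6 in IVM (median -0.26). Summed cumulus and granulosa cell markers (19 of 24 with a row) were 274 to 356 CPM in CNP_IVM, 410.4 to 721 CPM in IVM and 695 to 1371 CPM in GV oocytes. Of those 19 markers, 6, 6 and 3 averaged under 1 CPM in CNP_IVM, IVM and GV oocytes. STAR alone averaged 93.9, 316 and 657 CPM in that order, whereas HAS2 averaged 118, 77.1 and 16.3 CPM and PTGS2 37.6, 38.0 and 13.4 CPM. Of the 15 past the filter, 2 (HAS2 and PTGS2) were at least 2-fold higher and 8 lower in CNP_IVM against GV, and 2 and 7 in IVM against GV. Summed blood, endothelial and immune markers (3 of 12 with a row) were 3.53 to 25.7 CPM in CNP_IVM, 8.18 to 46.7 CPM in IVM and 171 to 361 CPM in GV oocytes. VWF made up most of that sum, averaging 11.2, 21.1 and 225 CPM in that order. CD3E averaged 1.27, 3.55 and 29.4 CPM, and PECAM1 0.19, 0.52 and 0.14 CPM. The title of GV replicate 9 says GV while its treatment label says in vitro maturation. It was grouped by title and stood apart, with 9381 genes at 1 CPM or more against 11311 to 11798 in the other 6 GV oocytes, and values without it are given where they change a result.

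Differences are between group means on the log2(CPM + 1) scale, which understates changes of low genes, and a gene counts as higher or lower when the means are at least 2-fold apart. After IVM, 2 members were at least 2-fold higher than in GV oocytes (IQGAP1 and ACTB), 1 was lower (TMSB10) and 5 were under 2-fold. Over all genes past the filter, 15.9% were higher and 33.0% lower in that comparison (48.9% together). After CNP_IVM, 2 members were higher than in GV oocytes (IQGAP1 and TMSB4X), 2 were lower (TMSB10 and CFL1) and 4 were under 2-fold, against 15.3% higher and 42.0% lower over all genes (57.3% together). The median member difference was 0.63 for IVM and -0.18 for CNP_IVM, and the median over all genes was -0.28 and -0.61. These 2 comparisons share their GV oocytes.

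In CNP_IVM against IVM, 1 member was higher (TMSB4X), 2 were lower (ACTB and CFL1) and 5 were under 2-fold. Over all genes 1.86% were higher and 14.8% lower (16.7% together). No oocyte overlapped between groups for 1 higher and 1 lower member in IVM against GV (11.5% and 19.9% of all genes), for 2 and 2 when CNP_IVM was set against GV (12.9% and 28.0%), and for 1 and 0 when it was set against IVM (1.38% and 2.60%). The median was -0.61 over the members and -0.28 over all genes. With counts this small, the members' share of lower genes cannot be set apart from the background.

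Scaling to the library total sets part of these splits. For all genes, IVM against GV gave 1880 higher and 3917 lower, but 2556 and 3432 with trimmed-mean (TMM) factors and 3132 and 2861 with quantile normalization, and the median of all genes moved to -0.07 and 0.15. For CNP_IVM against GV the 1818 higher and 4977 lower genes became 2979 and 4000 with TMM factors and 3537 and 3187 with quantile normalization, with medians of -0.17 and 0.14. For CNP_IVM against IVM the 220 higher and 1754 lower genes became 466 and 980, then 463 and 704, with medians of -0.05 and 0.0052. Measured from the all-gene median of the values as scaled by the authors, IQGAP1 stood at 3.07 in IVM and 3.05 in CNP_IVM against GV, and TMSB10 at -3.71 and -3.37.

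**Figure D1:**
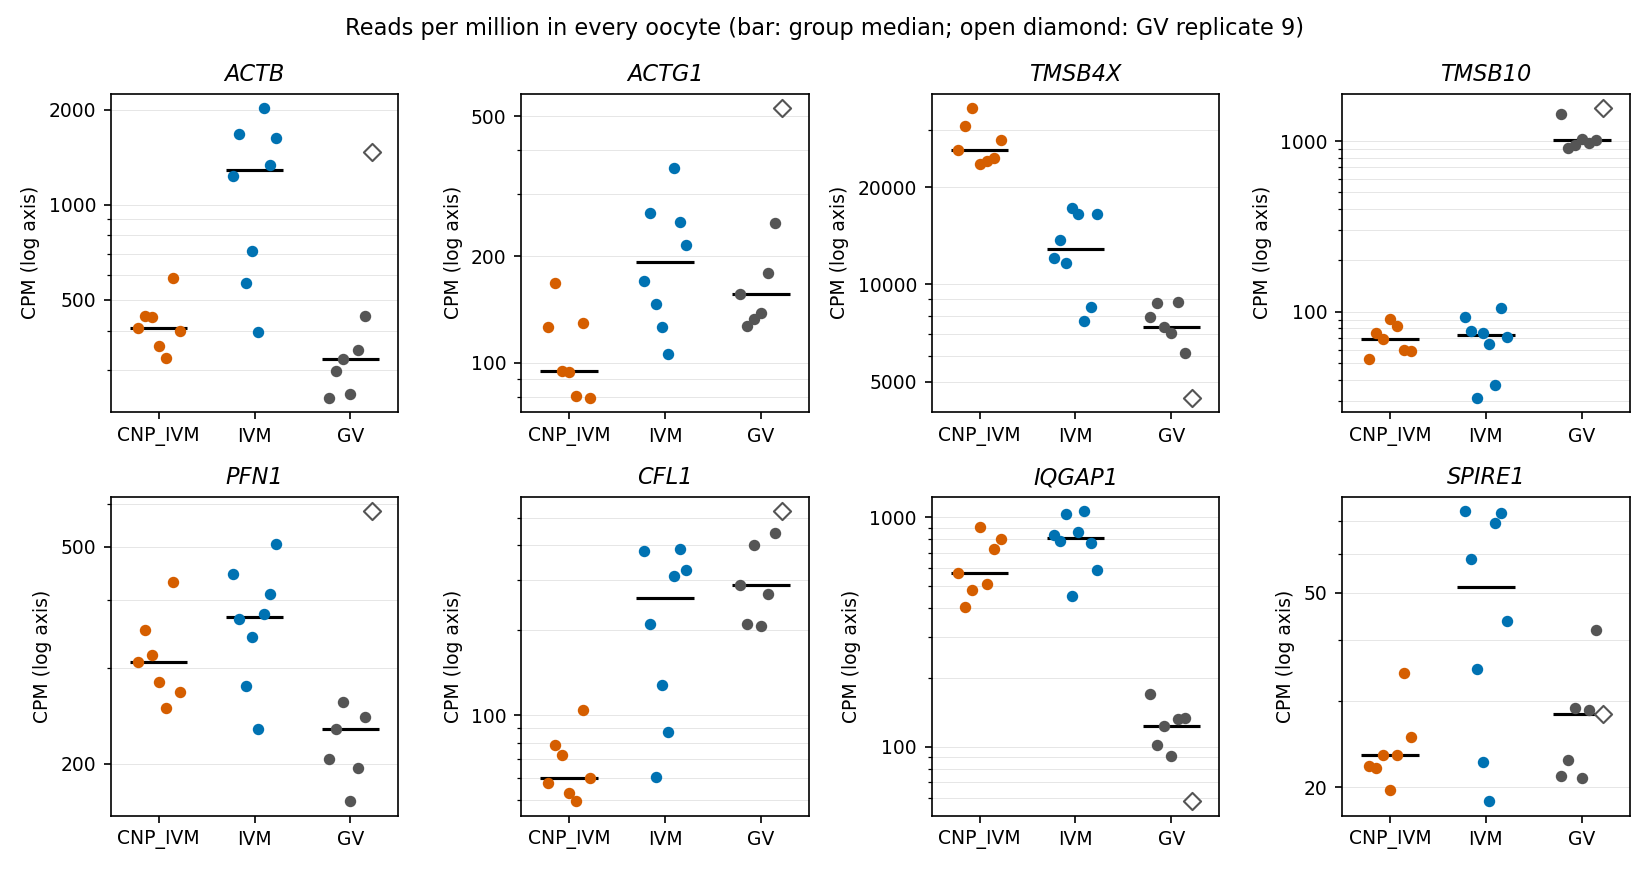
CPM (log axis) of the 8 genes in each CNP_IVM, IVM and GV oocyte, 1 point per oocyte, with the group median as a bar and GV replicate 9 as an open diamond. IQGAP1 and TMSB10 separate both cultured groups from GV oocytes, TMSB4X separates CNP_IVM oocytes from all others, and ACTB, CFL1 and SPIRE1 spread widely among IVM oocytes.

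**Figure D2:**
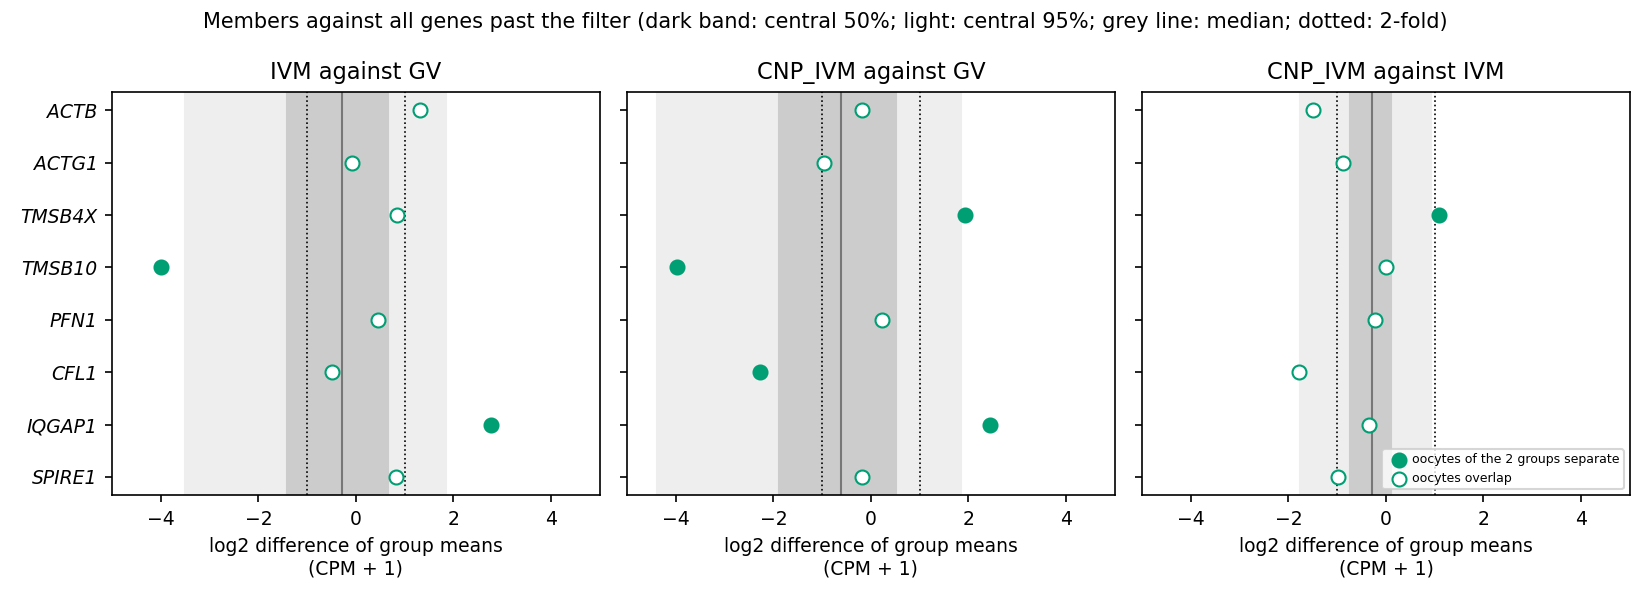
Difference of group means on the log2(CPM + 1) scale for each gene in the 3 comparisons, over bands for the central 50% and central 95% of all 11852 genes, with filled points where no oocyte of one group overlaps the other. Outside the central 95% lie IQGAP1 in both comparisons with GV, TMSB4X in both comparisons of CNP_IVM, TMSB10 in IVM against GV and CFL1 in CNP_IVM against IVM.

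ACTB and ACTG1 encode the cytoplasmic beta- and gamma-actins, whose proteins are almost the same. ACTB was at 327 to 589 CPM (median 408) in CNP_IVM, 395 to 2026 CPM (median 1289) in IVM and 245 to 1473 CPM (median 326) in GV oocytes. GV replicate 9 held the top GV value, and the other 6 GV oocytes were at 245 to 444 CPM. The 8 IVM oocytes covered a 5.13-fold range: replicates 5, 6 and 7 were at 565, 715 and 395 CPM, and the other 5 were at 1236 or above. The 7 CNP_IVM oocytes covered a 1.80-fold range.

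The ACTB mean was 2.48-fold higher in IVM than in GV oocytes (log2 1.31), and without GV replicate 9 the log2 difference was 1.91. It was 1.98 between group medians. CNP_IVM stood at 0.876 of the GV mean (log2 -0.19). That value turned to 0.41 without GV replicate 9, to 0.43 with TMM factors and to 0.32 between group medians. CNP_IVM against IVM gave -1.50, and 2 of 7 CNP_IVM oocytes lay below every IVM oocyte. Of all genes, 4.84% were as far or farther below.

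ACTG1 was at 79.5 to 168 CPM (median 94.3) in CNP_IVM, 106 to 356 CPM (median 193) in IVM and 127 to 528 CPM (median 156) in GV oocytes, and all 3 groups overlapped. Set against GV, its log2 difference was -0.08 for IVM and -0.96 for CNP_IVM, and CNP_IVM stood at -0.88 from IVM, all under 2-fold. The first turned to 0.32 without GV replicate 9, to 0.20 with TMM factors and to 0.30 between group medians. The second was -0.57 without GV replicate 9, and passed 2-fold when any of GV replicates 1, 2, 3, 4 or 6 or CNP_IVM replicates 2 or 6 was left out (-1.09 at most). The third passed 2-fold without CNP_IVM replicate 2 (-1.02) and between group medians (-1.02). Where reads in the shared coding sequence were split between the actin genes is not given in the sources used here, so the level of either is uncertain.

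The ratio of ACTB to ACTG1 reads inside a library does not depend on scaling to the total. It was 2.65 to 5.01 (median 4.06) in CNP_IVM, 3.74 to 7.57 (median 5.69) in IVM and 1.57 to 2.79 (median 1.94) in GV oocytes. Every IVM oocyte lay above every GV oocyte in this ratio. CNP_IVM oocytes overlapped IVM oocytes and, through GV replicate 9 at 2.79, also GV oocytes. The other 6 GV oocytes reached 2.46, below all CNP_IVM oocytes. ACTA2, the smooth muscle actin, had means of 7.42, 9.58 and 16.05 CPM in CNP_IVM, IVM and GV oocytes, and ACTG2 stayed below the filter.

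TMSB4X and TMSB10 encode thymosins that both bind actin monomers, and against GV they differed in opposite directions. TMSB4X was at 23608 to 35108 CPM (median 25942) in CNP_IVM, 7697 to 17172 CPM (median 12902) in IVM and 4461 to 8825 CPM (median 7369) in GV oocytes. No CNP_IVM oocyte overlapped an IVM or a GV oocyte, whereas 6 of 8 IVM oocytes lay above every GV oocyte. At its highest, in CNP_IVM replicate 3, TMSB4X took 3.51% of a library's reads, and at its lowest, in GV replicate 9, 0.446%.

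The TMSB4X mean was 3.80-fold higher in CNP_IVM than in GV oocytes (log2 1.93), and 218 of the 11852 genes were as far or farther above. IVM against GV gave 0.85, which became 1.14 with TMM factors. CNP_IVM against IVM gave 1.08. Of all genes, 1.38% had every CNP_IVM oocyte above every IVM oocyte, and TMSB4X was 1 of these 163 genes. The value was just under 2-fold, at 0.9976, without IVM replicate 8. Quantile normalization lowered it to 0.29, and CNP_IVM against GV to 1.21. TMSB4X ranked between 1 and 9 by CPM in every library, and this method sets each rank to 1 value for all libraries.

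TMSB10 was at 53.3 to 90.6 CPM (median 69.6) in CNP_IVM, 31.5 to 105 CPM (median 73.2) in IVM and 907 to 1561 CPM (median 1009) in GV oocytes. All 15 cultured oocytes lay far below all 7 GV oocytes. The means gave log2 differences of -3.99 in IVM and -3.98 in CNP_IVM against GV, or 0.0627 and 0.0632 of the GV level. In IVM against GV, 148 of the 11852 genes were as far or farther below, and in CNP_IVM against GV, 499 were. Between the cultured groups the log2 difference was 0.0099, with a sign that changed as single oocytes were left out. Summed reads gave 70.04 CPM (69.03 to 71.1) in CNP_IVM, 70.4 CPM (69.4 to 71.4) in IVM oocytes, against 1136 CPM (1131 to 1140.03) in GV oocytes, with 95% exact Poisson intervals that cover the counting of reads only. Many other cell types express TMSB10, and the summed follicle cell and blood cell markers were also lower in the cultured oocytes (ranges above). STAR was the main part of the follicle cell sum in GV oocytes, and HAS2 and PTGS2 were higher in cultured ones. The blood cell sum was mostly VWF. The Spearman correlation of TMSB10 with the summed cumulus and granulosa markers was 0.11 among GV oocytes, and -0.43 without replicate 9. It was 0.43 among IVM and -0.14 among CNP_IVM oocytes. The part of follicle or blood cells in the result was not tested.

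Within a library, TMSB4X had 261 to 504 times the reads of TMSB10 (median 412) in CNP_IVM, 80.6 to 371 times (median 218) in IVM and 2.86 to 9.62 times (median 6.84) in GV oocytes. No cultured oocyte overlapped a GV oocyte in this ratio, and CNP_IVM and IVM overlapped. TMSB4, a further thymosin gene of the cattle annotation, was at 52.3 to 70.1 CPM in CNP_IVM, 14.4 to 41.5 CPM in IVM and 9.67 to 19.4 CPM in GV oocytes. Its reads were 0.00170 to 0.00237 of those of TMSB4X in CNP_IVM, 0.00176 to 0.00251 in IVM and 0.00148 to 0.00232 in GV oocytes, so the ratio hardly moved while both levels did. Whether the 2 genes share reads was not tested. TMSB15B stayed below the filter.

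**Figure D3:**
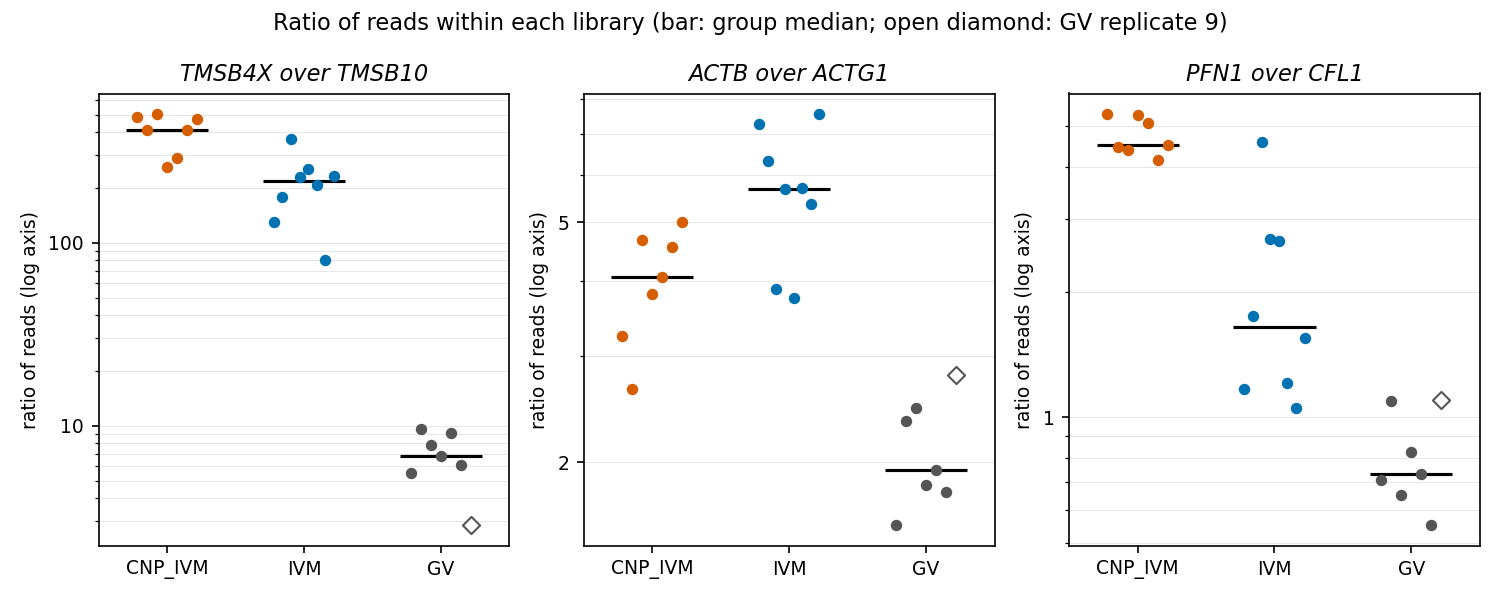
Ratio of the reads of TMSB4X to TMSB10, of ACTB to ACTG1 and of PFN1 to CFL1 inside each library (log axis), 1 point per CNP_IVM, IVM and GV oocyte, with the group median as a bar and GV replicate 9 as an open diamond. The thymosin ratio is 80.6 or more in every cultured oocyte and at most 9.62 in GV oocytes.

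PFN1, the profilin, differed little between the groups. It was at 253 to 431 CPM (median 308) in CNP_IVM, 231 to 506 CPM (median 373) in IVM and 171 to 580.4 CPM (median 231) in GV oocytes. All 3 groups overlapped. GV replicate 9 held the highest value, and the other 6 GV oocytes were at 171 to 259 CPM. Set against GV, its log2 difference was 0.45 for IVM and 0.23 for CNP_IVM, and CNP_IVM stood at -0.22 from IVM, all under 2-fold, and the last turned to 0.07 with TMM factors. Without GV replicate 9 the first was 0.76 and the second 0.54.

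CFL1, the non-muscle cofilin, was at 49.7 to 104 CPM (median 60.1) in CNP_IVM, 60.6 to 388 CPM (median 261) in IVM and 207 to 526.2 CPM (median 288) in GV oocytes. Every CNP_IVM oocyte lay below every GV oocyte, while IVM oocytes covered a 6.41-fold range that overlapped both other groups. Replicates 5, 7 and 6 of IVM were the low ones, at 60.6, 87.2 and 128 CPM. The log2 difference was -2.29 in CNP_IVM against GV, or 0.205 of the GV mean. In that comparison 18.9% of all genes were as far or farther below. IVM against GV gave -0.50. CNP_IVM against IVM gave -1.79, with 2.35% of all genes as far or farther below and 4 of 7 CNP_IVM oocytes below every IVM oocyte.

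The ratio of PFN1 to CFL1 reads was 4.14 to 5.35 (median 4.51) in CNP_IVM, 1.05 to 4.58 (median 1.65) in IVM and 0.551 to 1.10 (median 0.733) in GV oocytes. Every CNP_IVM oocyte lay above every GV oocyte, and IVM oocytes overlapped both groups. DSTN, destrin, which severs filaments like cofilin, was at 876 to 1314 CPM in CNP_IVM, 684 to 1533 CPM in IVM and 1453 to 2174 CPM in GV oocytes. Its log2 differences were -0.72 in CNP_IVM and -0.69 in IVM against GV, under 2-fold, and -0.03 between the cultured groups. CFL2, the muscle cofilin, was at 14.2 to 20.3 CPM in CNP_IVM, 14.2 to 31.1 CPM in IVM and 47.7 to 82.98 CPM in GV oocytes, with log2 differences of -1.85 and -1.58 against GV. PFN2, a second profilin, differed by 1.02 in CNP_IVM against IVM (24.3 to 83.97 CPM against 14.2 to 34.2 CPM, overlapping).

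IQGAP1, the scaffold, was higher in every cultured oocyte than in any GV oocyte. It was at 406 to 907 CPM (median 573) in CNP_IVM, 453 to 1058 CPM (median 813) in IVM and 57.9 to 169 CPM (median 123) in GV oocytes, where the lowest value was that of replicate 9. The mean was 6.88-fold higher in IVM (log2 2.78) and 5.41-fold higher in CNP_IVM (log2 2.44) than in GV oocytes. Of the 11852 genes, 16 were as far or farther above in IVM against GV and 35 in CNP_IVM against GV. The background share of genes with every cultured oocyte above every GV oocyte was 11.5% for IVM and 12.9% for CNP_IVM. Leaving out any 1 oocyte kept these differences at 2.67 to 2.90 and 2.32 to 2.55. CNP_IVM against IVM gave -0.34, under 2-fold and with overlapping oocytes.

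Its relatives did not all do the same. IQGAP2 was at 566 to 721 CPM in CNP_IVM, 516 to 799.8 CPM in IVM and 156 to 273 CPM in GV oocytes, and also separated both cultured groups from GV, by 1.49 and 1.45. IQGAP3 was at 3.18 to 9.43 CPM in CNP_IVM, 3.33 to 22.4 CPM in IVM and 10.03 to 20.03 CPM in GV oocytes, differing from GV by -1.29 in CNP_IVM and by -0.64 in IVM.

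SPIRE1 nucleates filaments together with FMN2 in mouse oocytes. It was at 19.8 to 34.3 CPM (median 23.3) in CNP_IVM, 18.8 to 73.2 CPM (median 51.2) in IVM and 20.9 to 41.98 CPM (median 28.3) in GV oocytes, and all groups overlapped. The 3.90-fold range of IVM oocytes was the widest, with replicates 7, 6 and 5 at the bottom (18.8, 22.6 and 34.8 CPM). Its log2 difference was 0.81 in IVM against GV, and 1.00 with TMM factors and 1.16 with quantile normalization. In CNP_IVM against GV it was -0.17, which turned to 0.36 with TMM factors and to 0.52 with quantile normalization. CNP_IVM against IVM gave -0.99, next to the 2-fold line. That value passed 2-fold with a pseudocount of 0.1 CPM (-1.01), between group medians (-1.10) and when CNP_IVM replicate 6 or IVM replicates 5, 6, 7 or 10 was left out (-1.11 at most).

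SPIRE2, the second SPIRE gene, was far lower in cultured oocytes. It was at 0 to 3.15 CPM in CNP_IVM, 0.103 to 10.9 CPM in IVM and 17.9 to 54.1 CPM in GV oocytes, with no overlap between either cultured group and GV. The log2 differences were -4.20 in CNP_IVM and -2.69 in IVM against GV.

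Among IVM oocytes, several of these genes were high or low in the same oocytes. Over the 8 IVM oocytes, the Spearman correlation was 0.95 between ACTB and ACTG1, 0.88 between PFN1 and CFL1, 0.83 between CFL1 and SPIRE1 and 0.55 between ACTB and CFL1. IQGAP1 had a correlation of 0.00 with ACTB and -0.69 with TMSB4X. Each value is a share of the same library total, and 28 gene pairs were examined per group, so these are descriptions. The summed cumulus and granulosa markers of IVM oocytes moved with the same genes, with correlations of 0.81 for ACTB, 0.79 for CFL1 and 0.88 for SPIRE1, and the summed oocyte markers moved against them, with correlations of -0.69, -0.93 and -0.83. The count of genes reaching 1 CPM (9431 to 10783 in IVM) had correlations of 0.69, 0.81 and 0.95 with them, and the library total 0.55, 0.60 and 0.64. STAR was the largest part of the cumulus and granulosa sum in IVM oocytes, averaging 316 CPM, so the sum largely follows that gene. IQGAP1 and TMSB4X had correlations of 0.10 and -0.64 with that sum in IVM oocytes. The part of the marker sums, the count of genes or the library total in the spread was not tested. Among the 7 CNP_IVM oocytes, the Spearman correlation was 0.82 between ACTB and ACTG1 and 0.96 between ACTB and CFL1, with correlations of -0.43 for ACTB, -0.32 for CFL1 and 0.71 for SPIRE1 with the summed cumulus and granulosa markers. Among the 7 GV oocytes those with the marker sum were 0.82 for ACTB, 0.61 for CFL1 and 0.57 for SPIRE1, and 0.71, 0.37 and 0.66 without replicate 9.

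**Figure D4:**
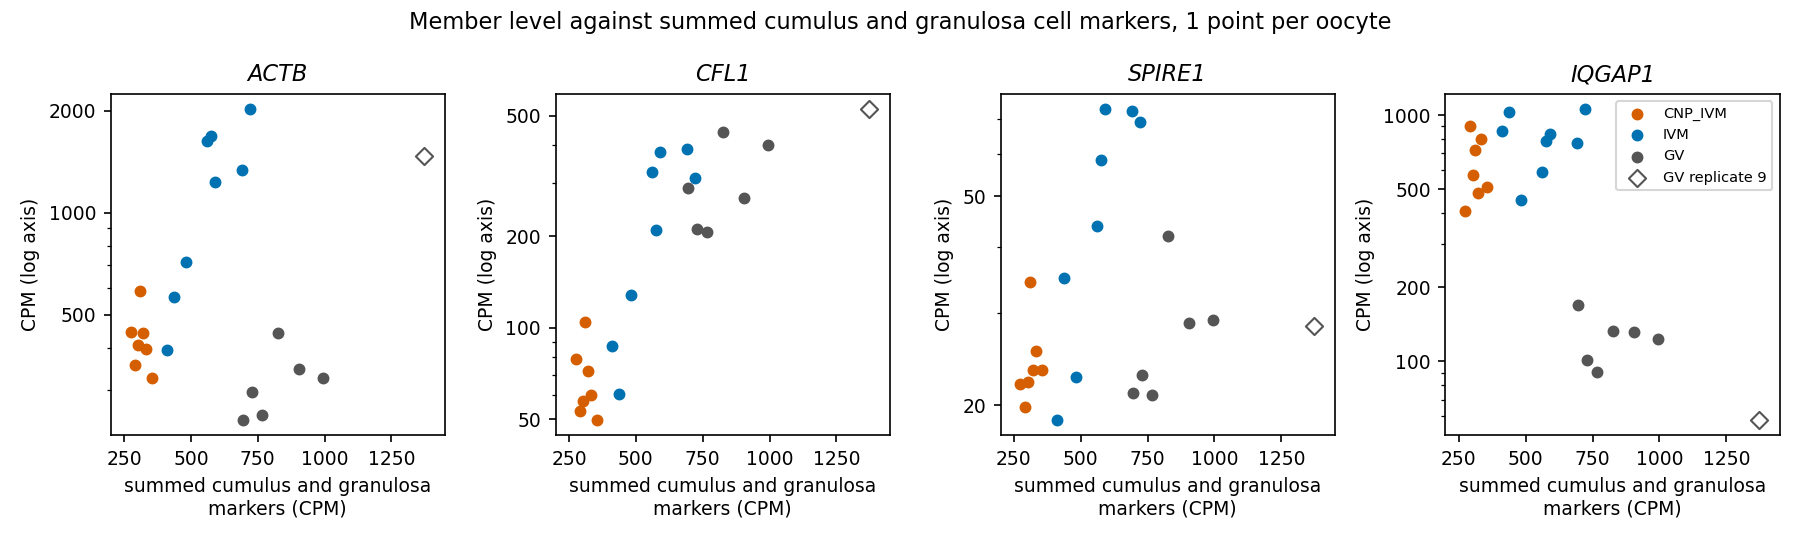
CPM of ACTB, CFL1, SPIRE1 and IQGAP1 (log axis) against summed cumulus and granulosa cell markers (CPM), 1 point per CNP_IVM, IVM and GV oocyte, with GV replicate 9 as an open diamond. IVM oocytes with larger marker sums (410.4 to 721 CPM) have more ACTB, CFL1 and SPIRE1, but IQGAP1 hardly follows the sum (Spearman correlation 0.10). In CNP_IVM oocytes the correlations are -0.43 for ACTB, -0.32 for CFL1, 0.71 for SPIRE1 and 0.07 for IQGAP1. STAR is the largest part of the sums in IVM and GV oocytes. GV oocytes have sums of 695 to 1371 CPM, with median levels of 326 CPM for ACTB, 288 CPM for CFL1, 28.3 CPM for SPIRE1 and 123 CPM for IQGAP1.

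For each member at least 2-fold apart in any comparison, the 2 genes with the closest pattern over the 22 oocytes were found among 6993 named genes with a mean of at least 10 CPM. Closeness was the root mean square difference between log2(CPM + 1) profiles after each was centred on its own mean. For ACTB these were ADORA2B, an adenosine receptor (0.30), and CTNNB1, beta-catenin (0.32). For TMSB4X they were TOMM6, of the mitochondrial import complex (0.16), and TMSB4 (0.17). For TMSB10 they were ATP5IF1, an inhibitor of ATP synthase (0.31), and RPLP2, of the ribosomal stalk (0.37). For CFL1 they were MRPL38, of the mitochondrial ribosome (0.30), and the transcription factor IRF8 (0.32), and for IQGAP1 the kinase MAPK6 (0.34) and the DNA ligase LIG4 (0.36). The members themselves varied over the 22 oocytes with SDs of 0.85 for TMSB4X to 1.92 for TMSB10 on that scale.

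Other genes of actin control were counted from 7 lists with 167 genes in all, of which 155 had a row and 144 passed the filter. In IVM against GV, 38 were at least 2-fold higher and 35 lower, with a median of -0.14, and 49 and 26 with quantile normalization. In CNP_IVM against GV, 30 were higher and 54 lower, with a median of -0.29, and these became 46 and 39 with TMM factors and 48 and 35 with quantile normalization. In CNP_IVM against IVM, 1 was higher and 24 lower, with a median of -0.38, and these became 4 and 11 with TMM factors and 5 and 9 with quantile normalization. Over all genes, 15.9% were higher and 33.0% lower in IVM against GV, and 15.3% and 42.0% in CNP_IVM against GV. In CNP_IVM against IVM these shares were 1.86% and 14.8%. For the 7 lists together they were 26.4% and 24.3%, 20.8% and 37.5%, and 0.69% and 16.7% in the same order. The all-gene medians stand above. Shares of single lists below are to be read beside these all-gene shares.

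Among 37 genes that nucleate filaments or promote nucleation, 11 were higher and 11 lower in IVM against GV (29.7% each). In CNP_IVM against GV, 11 and 13 were (29.7% and 35.1%). The lower ones included ARPC4, an Arp2/3 subunit, at 4.83 to 25.6 CPM in IVM against 150.1 to 245 CPM in GV oocytes (log2 -4.08). ARPC1B, of the same complex, was at 4.45 to 10.3 CPM in CNP_IVM against 102 to 322 CPM in GV oocytes (log2 -4.61). WASHC4, of the endosomal WASH complex, was at 39.4 to 88.05 CPM in IVM against 0.763 to 18.4 CPM in GV oocytes (log2 2.54). The formin FMNL2 was at 260.1 to 494 CPM in CNP_IVM against 8.83 to 103 CPM in GV oocytes (log2 2.28). In CNP_IVM against IVM, 0 of these genes were higher and 7 lower (18.9%, with 14.8% over all genes). The lower ones included the formin FMNL1 at 2.18 to 12.6 CPM against 4.77 to 49.6 CPM (log2 -1.80, overlapping).

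Of 20 other genes of monomer binding, severing and turnover, 5 were higher and 4 lower in IVM against GV (25% and 20%). In CNP_IVM, 1 was higher and 7 lower against GV (5% and 35%), and 1 and 7 also against IVM (5% and 35%). WDR1, which helps cofilin take filaments apart, was at 0.333 to 2.83 CPM in CNP_IVM and 0.995 to 9.07 CPM in IVM oocytes, against 43.5 to 129 CPM in GV oocytes (log2 -4.58 and -3.66). PDXP, a phosphatase that activates cofilin, was at 1.08 to 4.04 CPM in CNP_IVM against 62.6 to 199 CPM in GV oocytes (log2 -5.11) and against 1.54 to 30.3 CPM in IVM (log2 -1.93, overlapping). CORO1C, a coronin, was at 4.63 to 37.7 CPM in CNP_IVM against 30.5 to 93.2 CPM in IVM oocytes (log2 -1.89, overlapping).

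Among 11 capping genes, 5 were higher and 3 lower in IVM against GV (45.5% and 27.3%). In CNP_IVM, 2 and 3 were against GV (18.2% and 27.3%), and 0 and 1 against IVM (0% and 9.09%). ADD3, an adducin that caps filaments at the membrane skeleton, was at 387 to 691 CPM in CNP_IVM against 84.6 to 188 CPM in GV oocytes (log2 2.24). Of 26 bundling, cross-linking and membrane linker genes, 8 were higher and 7 lower in IVM against GV (30.8% and 26.9%). Counts for CNP_IVM were 8 and 8 against GV (30.8% each), and 0 and 3 against IVM (0% and 11.5%). ANLN, anillin of the contractile ring, was at 188 to 344 CPM in IVM against 40.4 to 65.7 CPM in GV oocytes (log2 2.28).

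Of 21 myosin genes, 6 were higher and 4 lower in IVM against GV, and 4 and 9 in CNP_IVM against GV. The light chain gene MYL6B was at 0.961 to 3.69 CPM in IVM against 29.9 to 48.7 CPM in GV oocytes (log2 -3.84). ECT2, an exchange factor needed for cytokinesis, was at 219 to 419.8 CPM in IVM and 144 to 342 CPM in CNP_IVM oocytes, against 8.20 to 74.1 CPM in GV oocytes (log2 2.59 and 2.21). Of 14 genes for other actins, actin folding and nuclear transport of actin, 1 was higher and 5 lower in IVM against GV (7.14% and 35.7%). Counts for CNP_IVM were 1 and 10 against GV (7.14% and 71.4%), and 0 and 2 against IVM (0% and 14.3%).

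**Figure D5:**
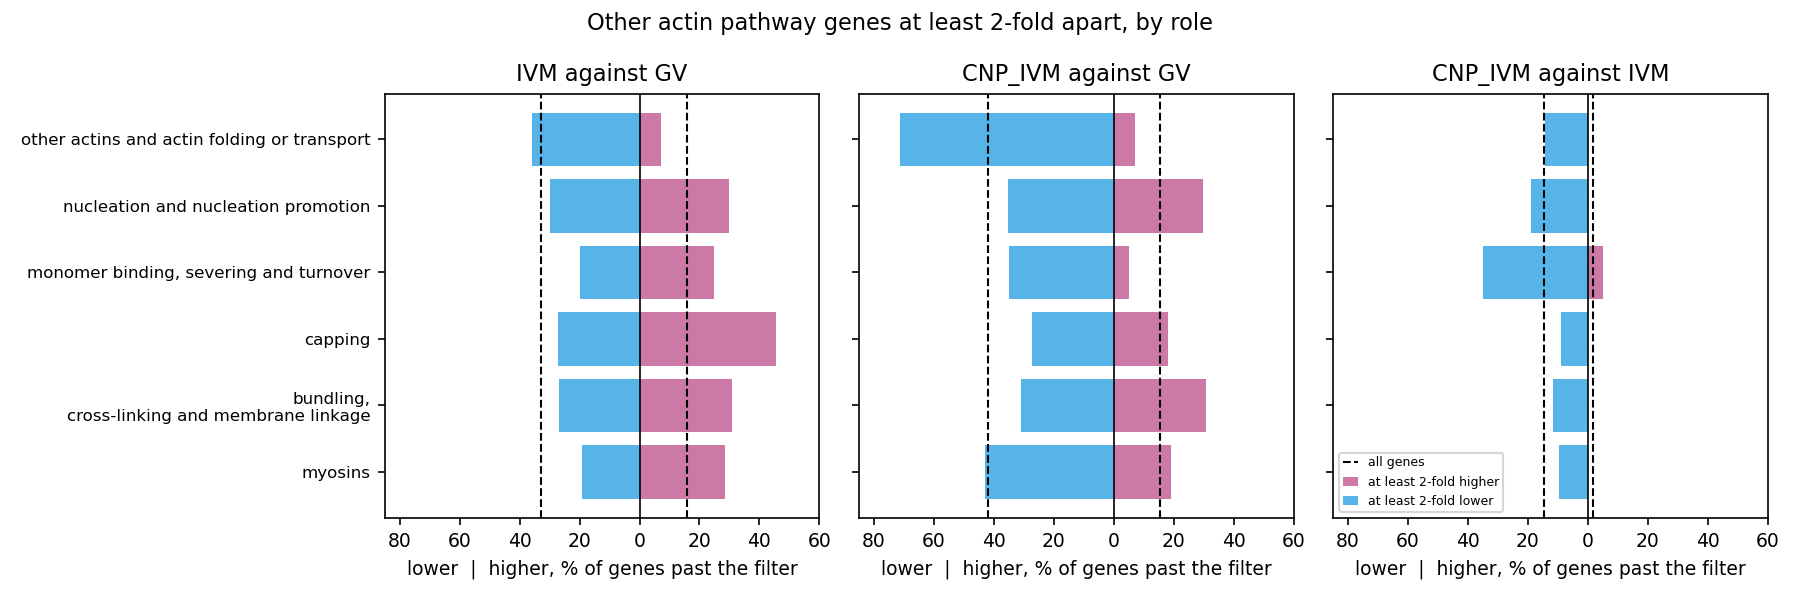
Share of the genes of 6 actin lists that were at least 2-fold higher (right) or lower (left) in the 3 comparisons, in percent of the list's genes past the filter, with dashed lines at the shares over all genes. In IVM against GV the share of higher genes is above the all-gene line of 15.9% in 5 of the 6 lists. In CNP_IVM against IVM nearly all bars point to lower, as the all-gene shares do (1.86% higher and 14.8% lower). There only nucleation (18.9%) and monomer binding, severing and turnover (35%) pass the all-gene line for lower genes.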

How the data were processed

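The authors deposited 1 table of expression values, named for TPM. The deposited values proved to be CPM, reads per gene scaled by the authors to the library total: a library's values are all multiples of 1 step, whatever the gene, and 100% came out as whole reads within 0.01 read. Per the submitters' processing notes, the tools included HISAT2 2.2.1 and featureCounts 2.0.1, with Trim Galore 0.6.7, FastQC and edgeR, and the build listed is that of the mouse, GRCm39, all without role or order. The table's names are cattle symbols (13356 of 13502 current in RefSeq ARS-UCD2.0, all 8 members included), so no coordinates are given. Listed genes held 97.1 to 97.6% of each library total. Strand use and the handling of reads shared by paralogs are not given in the sources used here.

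Each sample's description names its column, groups come from titles, and 0 columns were left over. Of the 29 samples, 7 were not analysed here. Between libraries of a group, chi-square per degree of freedom was at least 37.95, so none was a copy. A count test on the recovered reads was not run, because oocytes with no named donor are not replicates. Python 3.11.15, pandas 2.3.3 and edgeR 4.0.16 (TMM factors) were used, and steps were tested on simulated reads.

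The members, lists and rules were chosen with earlier results of these data known. Named genes were all members, per comparison the 3 highest and 3 lowest pathway genes at least 2-fold apart and averaging 10 CPM or more in either group, and the 2 closest patterns per member. Of reference genes, GAPDH, YWHAZ, PPIA and H2AZ1 were to be named. The result of 1 of the 7 pathway lists is not reported here on its own. Close relatives of members were added after their values were seen. Alternatives were pseudocounts of 0.1 and 5 CPM, TMM factors, quantile normalization, group medians, no filter, and leaving out each oocyte.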

Additional observations from a re-analysis of the deposited data

Results flagged for a closer look

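The highest and lowest oocyte of each group was set against the rest of its group for all 8 genes, 24 groups of 7 or 8 oocytes, with the gap to the next oocyte divided by the range of the group. That ratio was above Dixon's 95% critical value for the group's size in 5 groups. For normally distributed values, chance puts about 1 in 20 groups past this value. The 24 groups share their libraries and so are not independent, and the 5 flags cannot be set against that rate. The ratio was taken on CPM and not on the log2 scale used for the differences. On that scale the flags of ACTG1 and SPIRE1 fall away, while those of ACTB and PFN1 remain. Oocytes of unknown donors may also not be independent. In 3 of the 5 groups flagged on CPM the oocyte was GV replicate 9, whose treatment label goes against its title. It held ACTB at 1473 CPM with the next GV oocyte at 444 CPM. Its ACTG1 was at 528 CPM with the next at 249 CPM, and its PFN1 at 580.4 CPM with the next at 259 CPM. SPIRE1 was at 34.3 CPM in CNP_IVM replicate 6 with the next at 25.3 CPM, and at 41.98 CPM in GV replicate 7 with the next at 29.04 CPM. GV replicate 9 also had the highest summed cumulus and granulosa markers of the GV oocytes (1371 CPM). Its TMSB10 (1561 CPM), IQGAP1 (57.9 CPM) and TMSB4X (4461 CPM) lay at the end of the GV range away from the cultured oocytes. Its ACTB lay inside the IVM range but above every CNP_IVM oocyte. Its ACTG1, PFN1 and CFL1 (526.2 CPM) were above every cultured oocyte. Its count of genes at 1 CPM or more (9381) was near the lowest counts of CNP_IVM (9429) and IVM oocytes (9431). The cause was not tested.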

How the results depend on the processing

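Of 472 recomputed member differences, 462 moved by less than the spread between oocytes, 10 moved by more and 0 of those past 2-fold changed sign. Most of the 472 left out a single oocyte, which can hardly move a group mean by that spread. The 462 is therefore no measure of how far the results hold under other processing. Of the members, 5 in place of 3 were at least 2-fold apart in IVM against GV with TMM factors (4 in place of 2 higher). The count of higher genes over all genes also rose there (given above). In CNP_IVM against IVM, 0 in place of 1 were higher with quantile normalization, where the all-gene count of higher genes rose. Group medians gave 5 in place of 3 apart in that comparison, with 4 lower. The all-gene share with group medians is not reported here, so these member counts have no background beside them. Leaving out single oocytes gave 0 to 1 members higher there, 0 being without IVM replicate 8. Of the other actin genes in CNP_IVM against IVM, 1 higher became 3 with a pseudocount of 0.1 CPM, 0 with 5 CPM, 4 with TMM factors, 5 with quantile normalization, 3 with group medians, and 0 to 3 without single oocytes (0 without CNP_IVM replicate 2 or 5 or IVM replicate 5, 2 without IVM replicate 1, 3 without CNP_IVM replicate 4, 6 or 7 or IVM replicate 6 or 9). The 24 lower became 11 with 5 CPM, 11 with TMM factors and 9 with quantile normalization. In CNP_IVM against GV, 30 higher became 46 with TMM factors and 48 with quantile normalization, and 54 lower became 35 with the last. The cause of these moves was not tested. No paired analysis was possible because no test was made and the replicate numbers only name oocytes. Read depth does not limit the members, the lowest of which had 6187 summed reads in a group, but the donors behind the oocytes are unknown.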

Other observations

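ACTB is often used as a reference gene for PCR in oocytes, and 12 other such genes were listed beside it. In IVM against GV, 3 of the 12 were at least 2-fold higher and 4 lower, where 15.9% and 33.0% of all genes were. In CNP_IVM against GV, 3 were higher and 5 lower (15.3% and 42.0% of all genes), and in CNP_IVM against IVM, 0 were higher and 5 lower (1.86% and 14.8% of all genes). GAPDH, a glycolytic enzyme, was at 55.7 to 111 CPM in CNP_IVM, 96.7 to 451 CPM in IVM and 613 to 1586 CPM in GV oocytes, with no overlap between either cultured group and GV. Its log2 differences were -3.64 in CNP_IVM and -2.18 in IVM against GV.

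YWHAZ, a signalling adaptor, went the other way, at 148 to 202 CPM in CNP_IVM, 194 to 255 CPM in IVM and 55.6 to 86.3 CPM in GV oocytes, with log2 differences of 1.34 and 1.57 against GV. PPIA, cyclophilin A, was at 624 to 1003 CPM in CNP_IVM, 366 to 699 CPM in IVM and 636 to 1153 CPM in GV oocytes, under 2-fold in all 3 comparisons (-0.11 in CNP_IVM and -0.65 in IVM against GV, and 0.54 in CNP_IVM against IVM). H2AZ1, a histone variant with close copies and so of uncertain level, was at 4.31 to 10.2 CPM in CNP_IVM, 2.18 to 23.1 CPM in IVM and 1.31 to 48.7 CPM in GV oocytes, also under 2-fold in all 3.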
